A study of Mus musculus with 8 samples.

Results

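Sister chromatid cohesion is set up, guarded and dissolved by a small group of enzymes and cohesin-binding proteins, and 7 of their genes were followed here through the loss of cohesin or condensin in mouse embryonic stem cells. The genes were Esco1, Esco2, Cdca5, Sgo1, Espl1, Pttg1 and Hdac8. They were chosen by name, as factors that establish, protect or cleave cohesion, and every probe set annotated with exactly 1 of these symbols was taken. This gave 13 probe sets among 34758 with 1 symbol, and 7 of 18140 genes. All 7 genes, and all 13 probe sets, lay above the filter on low values, so that each was tested, among 12400 genes and 21730 probe sets in all.

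Expression was measured on 8 Affymetrix arrays of V6.5 cells, an established mouse embryonic stem cell line, in 4 groups of 2 arrays. Every culture was infected with virus carrying a short hairpin RNA, kept with 8 µg/ml polybrene, put in 4 µg/ml puromycin for 4 days, and its RNA was taken on day 5, so that the control shares the infection and the selection with the knockdowns. The CapH2 group (the condensin II gene Ncaph2) used hairpins 3 and 4, the Smc2 group (the gene of the ATPase in both condensins) used hairpins 1 and 2, and in both of these each array is another hairpin. The Smc1 group targets the cohesin gene Smc1a and the control group targets GFP, each with a single hairpin in 2 biological replicates, so that off-target effects of those hairpins and effects of their targets cannot be told apart. The comparisons below ask whether the genes that handle cohesion respond when cohesin or condensin is depleted. Values are deposited intensities on a linear scale, without a unit, and changes are differences of log2(value + 16), which understates the change of dim probe sets. "Called" means a Benjamini-Hochberg adjusted p below 0.05 over all genes in limma, a linear model fitted to all 8 arrays together; errors are limma standard errors (SE), n = 2 per group.

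Cohesin is a ring that holds sister chromatids together from S phase to anaphase. During replication the acetyltransferases Esco1 and Esco2 modify the Smc3 subunit, and sororin (gene Cdca5) is then recruited and blocks the release factor Wapl. In mitosis shugoshin (Sgo1) with its phosphatase guards cohesin at centromeres, until separase (Espl1), freed from its inhibitor securin (Pttg1), cuts the ring. Hdac8 removes the acetyl mark from Smc3 so that cohesin can be used again. Esco2, Cdca5, Sgo1, Espl1 and Pttg1 are known as genes of proliferating cells whose products rise and fall with the cell cycle, which is fast in embryonic stem cells. In bulk RNA, fewer cells in one phase or of one type and less RNA per cell cannot be told apart.

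The arrays were checked as a whole first. Array medians lay between 62.5 and 74.5. The targeted genes were reduced to 12.5% (Ncaph2), 32.03% (Smc2) and 12.6% (Smc1a) of the GFP mean in their own knockdowns. All 10 embryonic stem cell markers lay above the array median on all 8 arrays, among them Pou5f1, Nanog and Sox2. Of 14 feeder fibroblast markers measured, 3 (Col6a1, Lum and Dcn) lay below the median on every array. Of 9 trophectoderm markers, 1 (Elf5) did. Others of both lists lay above the median on all 8 arrays. Among them were Vim, Fn1, Col1a2 and Pdgfrb, and Krt7, Krt8, Krt18, Krt19, Eomes and Tfap2c. No detection calls were used here.

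Against GFP, 2 of the 7 genes were called in the Smc1 knockdown, Esco2 and Sgo1, both lower. Of all genes tested 14.1% were called in that comparison, 4.69% lower and 9.38% higher, and 31.2% had an unadjusted p below 0.05, as did the same 2 of the 7. None of the 7 was called in the CapH2 or in the Smc2 knockdown, where 0.0161% of genes were called in each; at an unadjusted limma p below 0.05 there were 1 (Pttg1, CapH2) and 0, against 12.6% of all genes in each. The median log2 change of the 7 genes was -0.39 in Smc1, -0.05 in CapH2 and -0.07 in Smc2, beside 0.03, 0.01 and -0.00 over all genes tested. In 4 of the 7 (Esco2, Sgo1, Pttg1 and Hdac8) both Smc1 arrays lay below both GFP arrays, where 28.4% of all genes did; none lay wholly above, where 34.6% did. The 3 comparisons share the GFP arrays.

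Esco2, the acetyltransferase that works at replication forks, showed the largest change of the 7. Its brighter probe set measured 1550 and 2060 on the Smc1 arrays and 4794 and 4761 on the GFP arrays. On the CapH2 arrays it measured 2629 (hairpin 3) and 4108 (hairpin 4), and on the Smc2 arrays 2808 (hairpin 1) and 3867 (hairpin 2). Both Smc1 arrays thus lay below all others, both GFP arrays above all others, and in each condensin group 1 hairpin lay well below the other. The log2 change in Smc1 was -1.41 (SE 0.243, limma adjusted p = 0.00729), and the mean was 37.8% of that in GFP. Means were 1805 ± 360 (SD, n = 2) in Smc1 and 4777 ± 23.8 in GFP. The dimmer probe set, whose name marks it as one that can also bind other transcripts, measured 167 and 237 in Smc1, 367 and 352 in GFP, 362 and 405 in CapH2 and 302 and 344 in Smc2. It fell in Smc1 as well, by 0.80 (SE 0.228, adjusted p = 0.0441 over all probe sets), to 56.2% of GFP. On the brighter probe set the condensin knockdowns stood at 70.5% (CapH2) and 69.9% (Smc2) of GFP, with log2 differences of -0.54 (95% interval -1.08 to 0.01, adjusted p = 0.398) and -0.53 (-1.08 to 0.01, adjusted p = 0.396). The dimmer one stood at 106.8% and 89.8%, so the probe sets did not give the same sign in CapH2. The Smc1 call of the brighter probe set was lost when Smc1 replicate 1 was left out (-1.21, adjusted p = 0.0836), or GFP replicate 1 (-1.41, 0.0694) or GFP replicate 2 (-1.42, 0.0502), and with the Actb ratio described below as a covariate the change was -0.86 (adjusted p = 0.0365). The call of the dimmer probe set was lost without either CapH2 array (adjusted p = 0.0523 and 0.0529), Smc1 replicate 1 (-0.57, 0.300), GFP replicate 1 (-0.77, 0.208) or GFP replicate 2 (-0.83, 0.140), with the Actb ratio as a covariate (-0.56, 0.275), without the filter (0.0832), with no intensity trend (0.0590) and with the replicate block (0.0576).

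**Figure D1:**
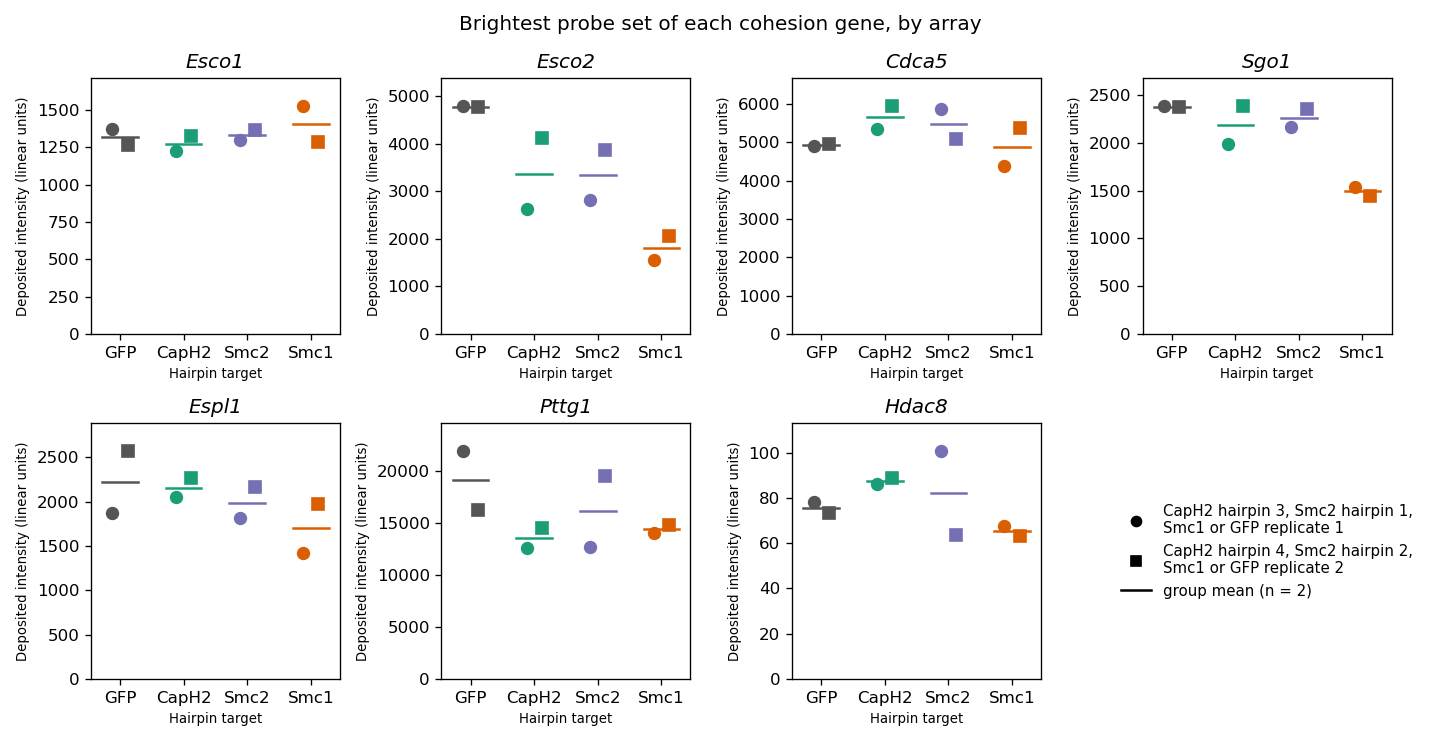
Deposited intensity (linear units, from 0) of the brightest probe set of each gene on every array; points are arrays, circles and squares mark the hairpin or replicate number, and bars are group means (n = 2). For Esco2 and Sgo1 both Smc1 arrays lie below the other 6, while the Smc1 and GFP arrays overlap for Esco1, Cdca5 and Espl1.

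Esco1, the acetyltransferase that acts outside S phase too, did not follow Esco2. With the GFP hairpin its brighter probe set measured 1377 and 1267, with Smc1 1529 and 1284, with CapH2 1224 and 1328 and with Smc2 1298 and 1363. All 4 groups overlapped. The log2 difference in Smc1 was 0.08 (SE 0.175, 95% interval -0.31 to 0.48, adjusted p = 0.781), and in CapH2 and Smc2 it was -0.05 (-0.44 to 0.34) and 0.01 (-0.38 to 0.40). The dimmer probe set, at 123 to 206 over the arrays, gave -0.34 in Smc1 (adjusted p = 0.407 over all probe sets), and across the 8 arrays the 2 probe sets had a Pearson's r of 0.26. The interval does not show that Esco1 stayed the same.

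Cdca5 codes for sororin, which Esco-made acetyl marks bring to cohesin. With the GFP hairpin it measured 4909 and 4951, with Smc1 4379 and 5380, with CapH2 5353 and 5952 and with Smc2 5867 and 5091. The Smc1 arrays lay on either side of GFP, and the log2 difference was -0.02 (SE 0.154, 95% interval -0.37 to 0.32, adjusted p = 0.938). All 4 condensin arrays lay above both GFP arrays, by 0.19 on average in CapH2 (adjusted p = 0.608) and 0.15 in Smc2 (adjusted p = 0.704), without a call. The CapH2 arrays lie wholly above GFP in 25.3% of all genes and the Smc2 arrays in 23.2%. The other probe set ran from 1247 to 1630 and gave 0.00, 0.28 and 0.17 in Smc1, CapH2 and Smc2. Its r with the brighter one over the 8 arrays was 0.89.

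Sgo1, shugoshin, was the other gene that fell. Its brighter probe set measured 1538 and 1448 on the Smc1 arrays and 2386 and 2378 on GFP, and stood at 1986 and 2390 with CapH2 and 2172 and 2354 with Smc2. The CapH2 arrays overlapped GFP and both Smc2 arrays lay just below it, as in 21.7% of all genes. Both Smc1 arrays lay below the other 6. The log2 change was -0.67 (SE 0.165, limma adjusted p = 0.0265). Means were 1493 ± 63.97 (SD, n = 2) in Smc1 and 2382 ± 6.31 in GFP, a ratio of 62.7%. The other probe set measured 1151 and 1343 in Smc1 and 2785 and 2030 in GFP, a log2 change of -0.93 (SE 0.225, adjusted p = 0.0248 over all probe sets) to 51.8%. That probe set also stood at 67.1% of GFP in CapH2 (-0.56, adjusted p = 0.340) and 75.0% in Smc2 (-0.41, adjusted p = 0.459), against 91.9% and 94.99% for the brighter one, and none of these 4 differences was called. The Smc1 call of the brighter probe set rested on all 4 arrays: it was lost when replicate 1 (-0.71, adjusted p = 0.132) or replicate 2 (-0.63, 0.105) of Smc1, or replicate 1 (-0.67, 0.151) or replicate 2 (-0.67, 0.110) of GFP was left out, with no intensity trend in the model (0.0525), and with the Actb ratio as a covariate (-0.52, 0.140). The call of the other probe set was lost without replicate 1 (-0.82, adjusted p = 0.186) or 2 (-1.04, 0.0587) of Smc1 or replicate 1 of GFP (-0.70, 0.208), with no intensity trend (0.0595) and with the Actb ratio (-0.50, 0.211).

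The promoters of 4 of the genes are shown because they are those, among the 5 members scanned, whose windows hold letters known from cell cycle genes. The sequences are RefSeq's, on the build GRCm38.p6, 300 bases each around the start of the gene, written 5′ to 3′ along the gene. Capitals mark the cell cycle homology region as TTTGAA or TTCGAA, and the CCAAT box, on either strand.

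Sgo1, chr17:53689266-53689565, minus strand: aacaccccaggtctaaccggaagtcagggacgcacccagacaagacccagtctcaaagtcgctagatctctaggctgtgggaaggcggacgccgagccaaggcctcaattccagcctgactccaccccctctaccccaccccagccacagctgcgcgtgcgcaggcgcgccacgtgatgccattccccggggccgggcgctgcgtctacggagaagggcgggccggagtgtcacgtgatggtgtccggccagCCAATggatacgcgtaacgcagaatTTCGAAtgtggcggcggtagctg

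Cdca5, chr19:6084847-6085146, plus strand: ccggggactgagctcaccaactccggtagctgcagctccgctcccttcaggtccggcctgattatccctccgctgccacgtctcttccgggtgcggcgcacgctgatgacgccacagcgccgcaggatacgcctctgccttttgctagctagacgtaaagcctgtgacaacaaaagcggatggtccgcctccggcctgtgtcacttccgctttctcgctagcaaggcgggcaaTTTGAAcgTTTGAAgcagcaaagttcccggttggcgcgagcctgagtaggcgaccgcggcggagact

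Espl1, chr15:102296043-102296342, plus strand: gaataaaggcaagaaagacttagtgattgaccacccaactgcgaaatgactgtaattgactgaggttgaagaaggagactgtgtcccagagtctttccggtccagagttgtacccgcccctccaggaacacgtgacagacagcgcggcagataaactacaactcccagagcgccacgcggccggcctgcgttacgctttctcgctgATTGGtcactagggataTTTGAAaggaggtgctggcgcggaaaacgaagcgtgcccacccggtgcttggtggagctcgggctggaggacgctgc

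Hdac8, chrX:102505109-102505408, minus strand: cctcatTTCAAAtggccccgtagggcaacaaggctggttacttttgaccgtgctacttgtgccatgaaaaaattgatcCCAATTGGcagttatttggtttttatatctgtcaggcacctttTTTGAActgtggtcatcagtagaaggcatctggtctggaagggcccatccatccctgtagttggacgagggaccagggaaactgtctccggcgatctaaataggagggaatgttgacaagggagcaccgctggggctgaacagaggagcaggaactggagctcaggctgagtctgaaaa

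Sgo1 had TTCGAA at bases 278 to 283 of the window and CCAAT at 253 to 257. Cdca5 had TTTGAA at 234 to 239 and again at 242 to 247, and no CCAAT. Espl1 had TTTGAA at 224 to 229 and, on the other strand, CCAAT at 207 to 211. Hdac8 had TTTGAA at 122 to 127 and, on the other strand, at 7 to 12, and overlapping CCAAT matches at 79 to 83 and, on the other strand, at 82 to 86. Of 32817 such windows of 300 bases, 17.9% held TTTGAA, 1.56% TTCGAA, 19.2% either of these and 37.4% CCAAT, on either strand. A promoter was used for 5 of the 7 genes, and no window of Esco1 or Esco2 was scanned. The window of Pttg1 held none of the 3 spellings. These are matches of letters in a window, not binding sites.

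Espl1 codes for separase, the protease that cuts the ring at anaphase, and 1 probe set measured it. With the GFP hairpin it stood at 1871 and 2574, with Smc1 at 1424 and 1971, with CapH2 at 2055 and 2264 and with Smc2 at 1814 and 2162. The Smc1 and GFP arrays overlapped, and the replicates of each lay far apart. The log2 difference was -0.39 in Smc1 (SE 0.220, 95% interval -0.88 to 0.10, adjusted p = 0.265), -0.02 in CapH2 (-0.52 to 0.47) and -0.15 in Smc2 (-0.64 to 0.34).

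Pttg1, securin, inhibits separase until anaphase. Its 3 probe sets were all lower in Smc1 than in GFP, but only 1 of them was called. Over the 8 arrays their r with each other ran from 0.75 to 0.97. The brightest, whose name marks it as shared between transcripts, measured 21952 and 16267 with the GFP hairpin, 14062 and 14772 with Smc1, 12580 and 14480 with CapH2 and 12692 and 19537 with Smc2. Both Smc1 and both CapH2 arrays lay below GFP, at 75.4% and 70.8% of its mean. The log2 differences were -0.39 in Smc1 (SE 0.203, adjusted p = 0.223) and -0.49 in CapH2 (SE 0.203, adjusted p = 0.378), so neither was called. The CapH2 arrays lie wholly below GFP in 21.9% of all genes. The second probe set ran from 4792 to 10407, and measured 5462 and 5566 in Smc1 against 10407 and 8008 in GFP (-0.73, adjusted p = 0.112 over all probe sets). It was called without Smc2 hairpin 1 (adjusted p = 0.0188) or hairpin 2 (0.0193), and when only the Smc1 and GFP arrays were fitted (0.00759). The dimmest measured 209 and 313 in Smc1, 774 and 475 in GFP, 435 and 458 in CapH2 and 276 and 546 in Smc2. It was the only one called in Smc1, with a log2 change of -1.20 (SE 0.339, adjusted p = 0.0438 over all probe sets) to 41.7% of GFP. That call was lost without either Smc1 array (-0.92, 0.288, and -1.47, 0.0602) or either GFP array (-0.86, 0.298, and -1.54, 0.0678), with the Actb ratio as a covariate (-0.54, 0.401), without the filter (0.0851), with no intensity trend (0.0844) and with the replicate block (0.0736).

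**Figure D2:**
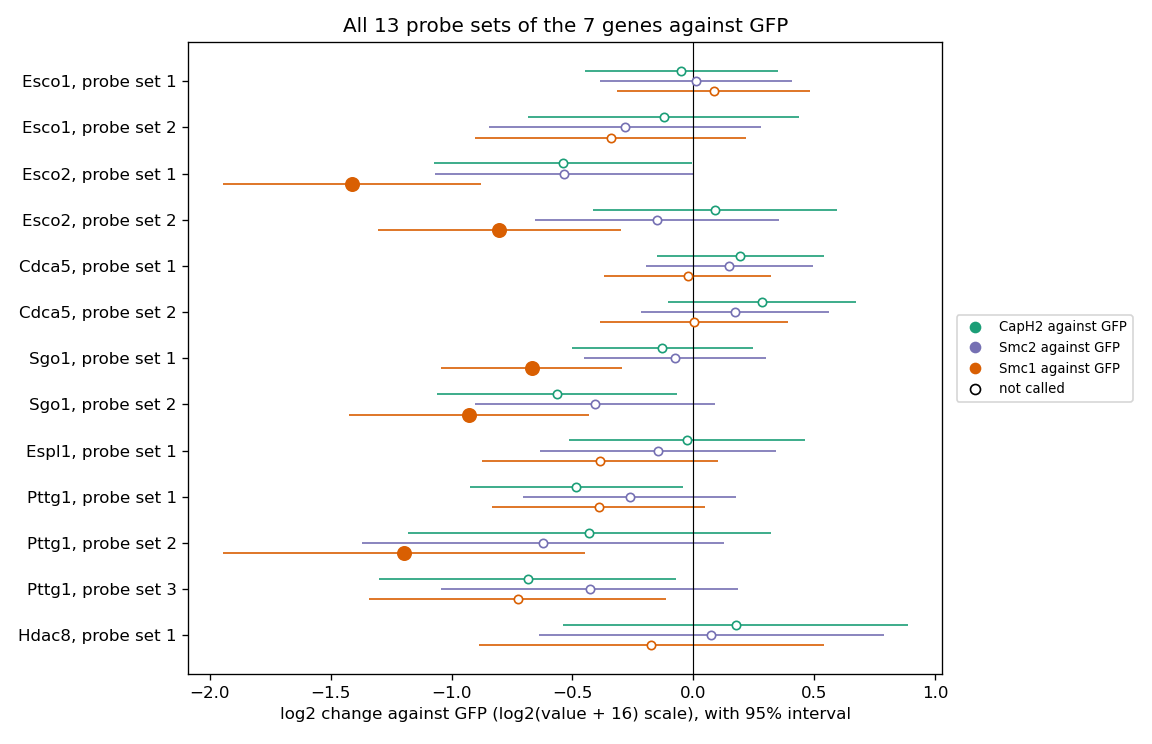
Log2 change against GFP (log2(value + 16) scale) with its 95% interval for all 13 probe sets in the 3 knockdowns, numbered from the brightest of each gene except that the Pttg1 sets 2 and 3 are the dimmest and the middle one; filled points were called over 21730 probe sets. The 5 filled points are all in the Smc1 knockdown: both Esco2, both Sgo1 and 1 of 3 Pttg1 probe sets.

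Counted by probe set, 5 of 13 were called lower and 0 higher in the Smc1 knockdown, beside 4.79% lower and 7.92% higher of all 21730 probe sets. Probe sets of 1 gene share their RNA, so these 5 stand for 3 genes.

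Hdac8, the deacetylase that recycles cohesin, lay near the array medians, and was measured by 1 probe set. With the GFP hairpin it stood at 78.1 and 73.4, with Smc1 at 67.6 and 63.0, with CapH2 at 86.1 and 89.0 and with Smc2 at 100.9 and 63.8. Both Smc1 arrays lay below GFP and both CapH2 arrays above it, by little. It was above the array median on 5 of the 8 arrays. The log2 differences were -0.17 in Smc1 (95% interval -0.91 to 0.56, adjusted p = 0.759), 0.17 in CapH2 (-0.56 to 0.91) and 0.07 in Smc2 (-0.66 to 0.81).

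The knockdowns were then set against each other. No GFP value enters these differences, but the spread behind the SE and adjusted p was estimated over all 8 arrays, GFP included. Setting Smc1 against the average of the CapH2 and Smc2 groups, Esco2 and Sgo1 were called lower here too, 2 of the 7, beside 7.85% of all genes called, 2.24% lower and 5.6% higher, and 23.7% at an unadjusted p below 0.05. Esco2 was lower by -0.88 (SE 0.211, limma adjusted p = 0.0347), at 53.8% of the mean of the condensin groups, and both Smc1 arrays lay below all 4 condensin arrays. Its dimmer probe set gave -0.77 (adjusted p = 0.0461 over all probe sets). Sgo1 was lower by -0.57 (SE 0.143, adjusted p = 0.0416), at 67.1%, again with no overlap, but its other probe set was not called (-0.44, adjusted p = 0.223). The Smc1 arrays lie wholly below the 4 condensin arrays in 14.6% of all genes and wholly above in 20.5%, where 0 of the 7 did. The other 5 genes were not called: Esco1 0.10 (95% interval -0.23 to 0.44), Cdca5 -0.19 (-0.49 to 0.10), Espl1 -0.30 (-0.73 to 0.12), Pttg1 -0.02 (-0.41 to 0.37) and Hdac8 -0.30 (-0.94 to 0.34).

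Both calls were close to the threshold. Without 1 array, Esco2 was not called when hairpin 4 of CapH2 (-0.71, adjusted p = 0.0749), replicate 1 (-0.67, 0.323) or 2 (-1.08, 0.0719) of Smc1, or replicate 1 (0.0683) or 2 (0.0681) of GFP was left out. Sgo1 was not called when hairpin 4 of CapH2 (-0.50, adjusted p = 0.113), hairpin 2 of Smc2 (-0.54, 0.0588), replicate 1 (-0.61, 0.242) or 2 (-0.52, 0.195) of Smc1, or replicate 1 (0.0748) or 2 (0.0747) of GFP was left out. Esco2 was also not called without the filter (0.0570), with no intensity trend (0.0834) and with only the arrays compared (0.0683), nor was Sgo1 (0.0505, 0.0776 and 0.0755). With the Actb ratio as a covariate both were called (-0.65, 0.0136, and -0.51, 0.0319), and over the 18 alternatives the adjusted p of Esco2 ran from 0.0124 to 0.323 and that of Sgo1 from 0.0189 to 0.242.

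CapH2 against Smc2 called none of the 7 in limma, and 0 had an unadjusted p below 0.05, where 1.03% of all genes did and 0.00806% were called. The groups overlapped for all 7, where CapH2 lay wholly below in 10.2% of all genes and wholly above in 12.6%. Esco2 differed by -0.00 (95% interval -0.55 to 0.54), Sgo1 by -0.05 (-0.42 to 0.32), Cdca5 by 0.05 (-0.30 to 0.39), Esco1 by -0.06 (-0.45 to 0.33), Espl1 by 0.12 (-0.37 to 0.61), Pttg1 by -0.22 (-0.67 to 0.23) and Hdac8 by 0.10 (-0.64 to 0.84). The intervals do not show that the condensin knockdowns act alike on these genes.

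**Figure D3:**
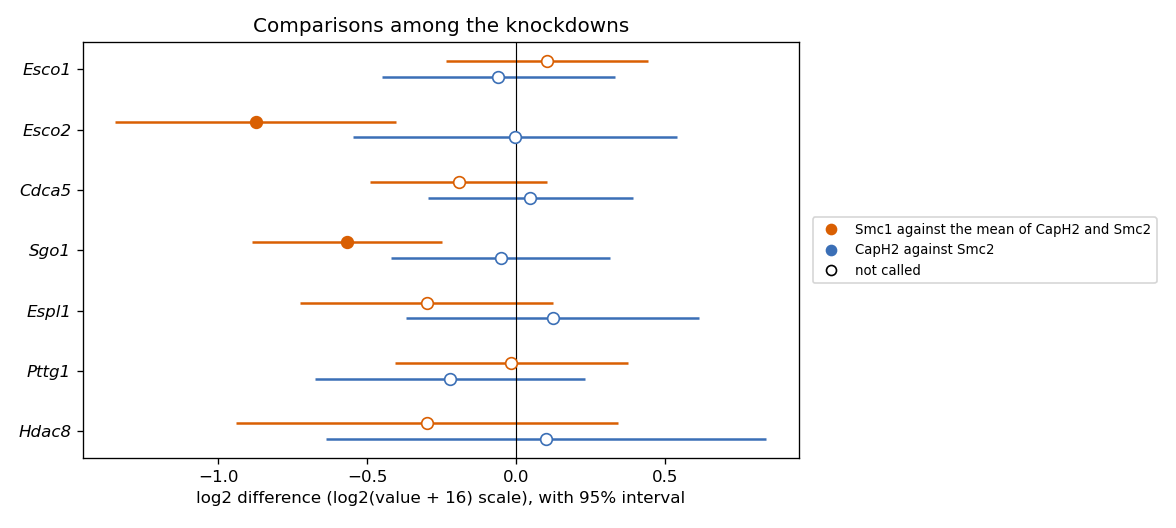
Log2 differences (log2(value + 16) scale) with 95% intervals for the brightest probe set of each gene, in Smc1 against the average of CapH2 and Smc2 and in CapH2 against Smc2; filled points were called. Esco2 at -0.88 and Sgo1 at -0.57 are filled, and no gene is in the other comparison.

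Pathway lists were read beside the 4.69% of all genes called lower and the 9.38% called higher in Smc1 against GFP. Of 10 genes of the cohesin ring, its loader and its release factors, 2 were called lower, 1 of them the target of the hairpin, and 1 higher: the target Smc1a (-2.95, adjusted p = 8.04e-05), the release factor Wapl (-0.59, adjusted p = 0.0461), which sororin opposes, and the subunit gene Stag1, which rose by 0.82 (adjusted p = 0.0235). Smc3, the substrate of Esco1 and Esco2, stood at -0.40 (adjusted p = 0.113) and Rad21, the subunit that separase cuts, at -0.16 (adjusted p = 0.400), both without a call. The genes called lower were 1 without either CapH2, either Smc1 or either GFP array, and those called higher 0 without either Smc1 or either GFP array and 0 with median centring of the arrays. In the CapH2 and Smc2 knockdowns 0 of these 10 were called in limma.

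Centromere guards other than Sgo1 gave 1 call in 14. Sgo2a, the second shugoshin gene, fell by 1.20 (SE 0.297, adjusted p = 0.0265) in Smc1: it measured 2216 and 2459 there, 5667 and 5131 with the GFP hairpin, 2498 and 4158 with CapH2 and 2576 and 4809 with Smc2. As for Esco2, the Smc1 arrays were lowest, and CapH2 hairpin 3 and Smc2 hairpin 1 lay well below the other hairpin of their group. Bub1, the kinase that marks the centromere for shugoshin, stood at -0.57 (adjusted p = 0.0763), and the phosphatase subunits Ppp2r1a and Ppp2r5c at 0.15 (adjusted p = 0.428) and -0.66 (adjusted p = 0.127). The median of the list was 0.03. The count of 1 was 0 without either Smc1 or either GFP array, 2 without either Smc2 array and 3 with median centring.

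Around separase, the anaphase-promoting complex and spindle checkpoint gave 0 calls in 22 genes in limma (median -0.14), and 2 lower with median centring. Of 7 kinases, cyclins and regulators of separase and of cohesin phosphorylation, 1 was called: the casein kinase gene Csnk1d was higher by 1.42 (SE 0.330, adjusted p = 0.0213), and this was lost without either Smc1 or either GFP array. It stood at 2345 and 1928 in Smc1 and 737 and 836 in GFP. Cdk1 (-0.19, adjusted p = 0.403) and Plk1 (-0.16, adjusted p = 0.538), the mitotic kinases, were not called. Of 10 deacetylases and acetyltransferases related to Hdac8 or the Esco genes 0 were called in limma (median 0.02).

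At the replication fork, where Esco2 acts, 1 of 12 cohesion factors was called lower in Smc1: Rfc1, the large subunit of the clamp loader (-0.66, adjusted p = 0.0346), and 11 of the 12 values lay below 0 (median -0.26), beside 47.7% of all genes. Of 35 replication and S phase genes, 6 were called lower and 0 higher, with 34 below 0 and a median of -0.36. Among them were the ribonucleotide reductase gene Rrm2 (-0.64, adjusted p = 0.0073), Gins1 of the replicative helicase (-0.75, adjusted p = 0.0106), the primase gene Prim1 (-0.72, adjusted p = 0.0149) and the helicase activator Cdc45 (-0.94, adjusted p = 0.035). Of 32 G2/M genes 1 was called, the transcription factor gene Mybl2, lower by -1.03 (adjusted p = 0.0243), and 29 lay below 0 (median -0.27). The lists share genes. The 6 replication calls were 0 without Smc1 replicate 1 or GFP replicate 1 and 3 without Smc1 replicate 2 or GFP replicate 2, and 13 with median centring, which moved the median change of all genes from 0.03 to -0.15. With the Actb ratio as a covariate they were 2. The call of Rfc1 was lost without either Smc1 or either GFP array, and that of Mybl2 without Smc1 replicate 1 or either GFP array; the G2/M count was 3 without either Smc2 array and 4 with median centring, and the fork count then 3.

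In Smc1 against the mean of the condensin groups the same replication list had 7 of 35 genes called lower, with all 35 below 0 (median -0.43), while the G2/M list had 1 of 32 called lower (median -0.10). Against GFP, the CapH2 and Smc2 medians of the replication list were 0.05 and 0.02, and those of the G2/M list -0.22 and -0.16, with 0 called in each in limma. Summed over the replication genes, intensity was 147007 and 154397 on the Smc1 arrays and 184553 to 205353 on the other 6. Over the G2/M genes the sums were 171985 and 185533 on the Smc1 arrays and 169554 to 232025 on the others, so that the groups overlapped. The part of cell cycle phase in the change of Esco2 and Sgo1 was not tested.

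**Figure D4:**
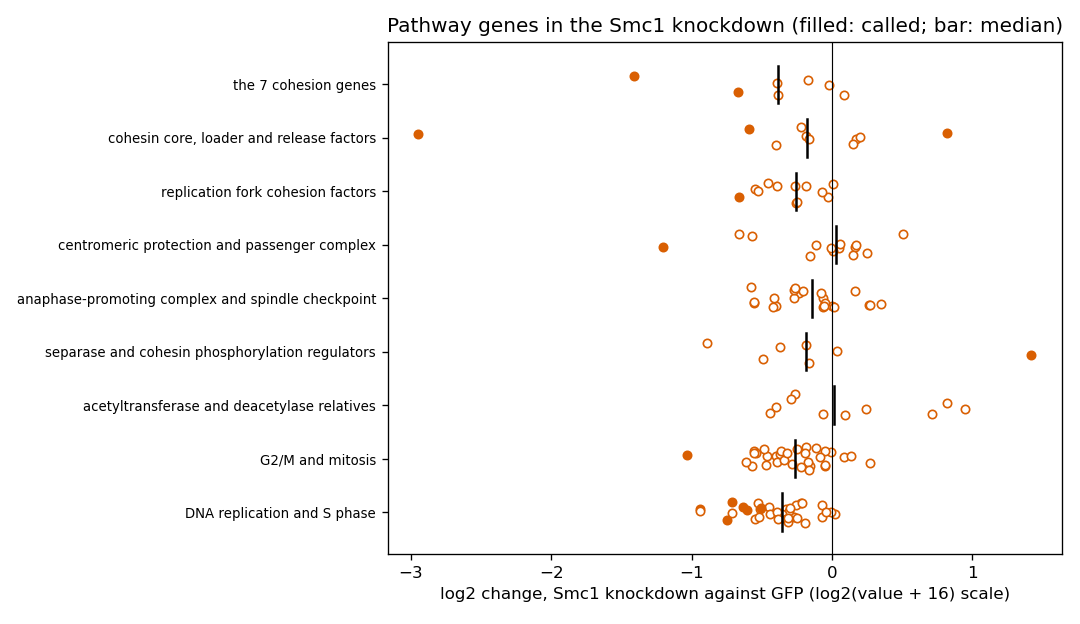
Log2 change in the Smc1 knockdown against GFP (log2(value + 16) scale) for the 7 cohesion genes and 8 lists of pathway genes; each point is a gene, filled points were called, and bars are list medians. Replication genes sit mostly to the left of 0, with a median of -0.36, and the filled point at -2.95 is the targeted Smc1a.

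Markers of cell state and the Actb ratio, a sign of RNA quality described below, also differed between the Smc1 and GFP arrays. Of 10 embryonic stem cell markers 6 were called lower in Smc1, among them Nanog (-0.73, adjusted p = 0.00521) and Esrrb (-1.57, adjusted p = 0.00773), and 1, Lin28a, higher (1.05, adjusted p = 0.0461); their summed intensity was 135446 and 129666 with the GFP hairpin, 84541 and 101471 with Smc1, 111561 and 117920 with CapH2 and 120110 and 126780 with Smc2. Of 8 trophectoderm markers tested, of 9 listed, Krt19 (2.73) and Cdx2 (2.52) were called higher and Tfap2c (-1.51) lower, and the sum over the 9 was 54959 and 40094 on the Smc1 arrays against 10712 to 27606 on the others. Most of that sum is Krt8 and Krt18 (20014.5 and 25784.6 on Smc1 replicate 1), neither of them called against GFP. Of 11 feeder fibroblast markers tested, of 15 listed, Col3a1 (1.92) and Pdgfra (1.37) were called higher and 0 lower. The median of the 11 was 0.23, and 5 lay below 0. Among these was Postn, at 19.5 and 26.1 on the Smc1 arrays and 50.3 to 133 on the others. Col3a1 measured 408 and 190 on the Smc1 arrays and 46.3 to 163 on the others. The sums over the 14 measured, 14800 and 18006 in Smc1 and 13107 to 19613 elsewhere, are nearly all Vim and Fn1 (6994 and 6344 on Smc1 replicate 1), so they do not follow the dim collagen genes. The sums over 9 primitive endoderm markers were 5751 and 5881 in Smc1 and 3628 to 5677 elsewhere, with Dab2 (1.79) and Pdgfra called higher. No marker of these lists was listed at 0. Without Smc1 replicate 1 the lower stem cell marker calls were 0, without GFP replicate 1 they were 3, and without GFP replicate 2 1; with the Actb ratio they were 2. The higher trophectoderm calls were 1 without Smc1 replicate 1 or GFP replicate 1 and 4 without either CapH2 array, and those of feeder and primitive endoderm markers were 0 without Smc1 replicate 1 or GFP replicate 1. Lin28a was not called with median centring.

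The stem cell and trophectoderm markers also separated Smc1 from the condensin knockdowns, the comparison in which Esco2 and Sgo1 were called. Of 11 feeder fibroblast markers 1 was called higher and 1 lower in it (median 0.11). Of 8 primitive endoderm markers 0 were called (median 0.01). There 6 of 8 trophectoderm markers were called higher and 1 lower (median 1.68), among them Krt19 (2.82, adjusted p = 0.00282) and Krt18 (1.69, adjusted p = 0.0119), and 5 of 10 stem cell markers were called lower (median -0.55), among them Zfp42 (-0.85, adjusted p = 0.00751) and Nanog (-0.52, adjusted p = 0.0162). Of 7 cell cycle inhibitors all had values above 0 (median 0.42) and 1 was called, Cdkn1a (1.41, adjusted p = 0.0054), which measured 5239 and 4976 in Smc1 and 1629 to 2396 in the condensin groups. In Smc1 against GFP 0 of the 7 inhibitors were called in limma (median 0.32), and 3 lay below 0. Against GFP the medians of this list in CapH2 and Smc2 were -0.53 and -0.46. With the GFP hairpin Cdkn1a measured 2655 and 3487, above the condensin groups.

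The ratio of the Actb control probe sets at the 3' and 5' ends, a sign of RNA and labelling quality, ran in parallel with Esco2. It was 2.18 and 2.04 with the GFP hairpin and 1.70 and 1.84 with Smc1, and within the condensin groups it was lower on CapH2 hairpin 3 (1.67) than on hairpin 4 (1.98), and lower on Smc2 hairpin 1 (1.82) than on hairpin 2 (2.18), as was Esco2. CapH2 hairpin 3 had the lowest ratio of all and an Esco2 value of 2629, above the 1550 and 2060 of the Smc1 arrays. For Sgo1 the same array stood at 1986, above the 1538 and 1448 of Smc1. As a covariate the ratio took the Esco2 change from -1.41 to -0.86 and the Sgo1 change from -0.67 to -0.52, as given above. The same kind of ratio for the Gapdh control probe sets did not separate Smc1 (0.833 and 0.862) from GFP (0.864 and 0.857). Within the condensin groups it had the same order as the Actb ratio. It was 0.790 on CapH2 hairpin 3 and 0.863 on hairpin 4, and 0.813 on Smc2 hairpin 1 and 0.845 on hairpin 2. The parts of RNA quality and of the markers in the Esco2 and Sgo1 changes were not tested.

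**Figure D5:**
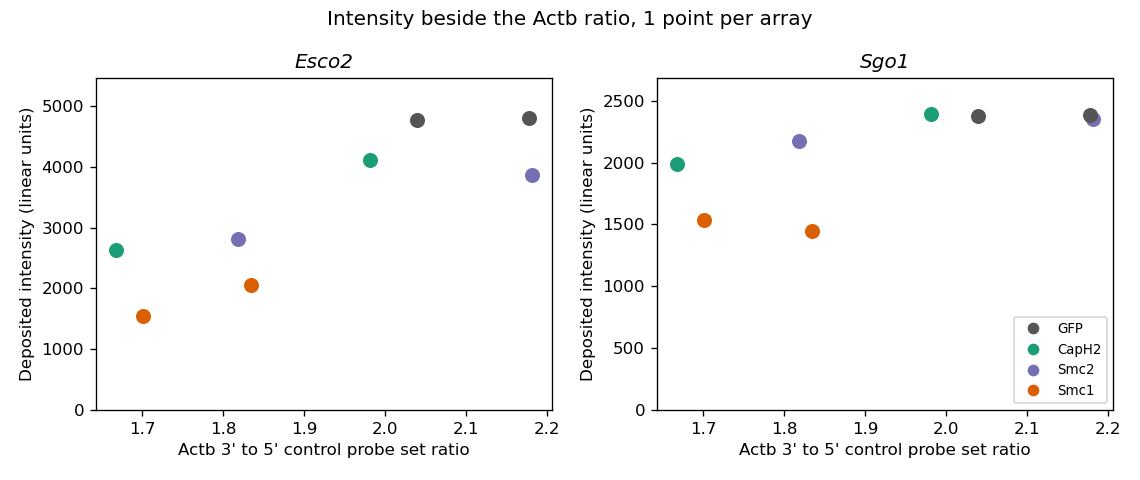
Intensity (linear units, from 0) of Esco2 and Sgo1 against the Actb 3' to 5' control ratio, 1 point per array, coloured by group. The Smc1 arrays, at ratios of 1.70 and 1.84, lie below the CapH2 and Smc2 arrays of similar ratio (1.67 and 1.82) for both genes.

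The genes whose log2 values were most like those of each member over the 8 arrays are given as a description, by Pearson's r; the arrays fall into 4 groups, so that any gene with the same order of groups ranks high. Nearest to Esco2 were Gm3336 (r = 0.995), Lrrc34 (0.994) and the transcription factor gene Gabpa (0.994), all called lower in Smc1 (-1.80, -3.07 and -1.06). Nearest to Sgo1 were the replication checkpoint kinase gene Chek1 (0.991), Cip2a (0.990) and the proton pump subunit gene Atp6v1d (0.986), with Smc1 changes of -0.96 (called), -0.50 (not called) and -0.58 (called). Esco2 and Sgo1 themselves had an r of 0.92. For the genes without a call the nearest were Bbip1 (0.946), Brk1 (0.939) and Gmfb (0.924) for Esco1; the checkpoint kinase gene Chek2 (0.939), Fchsd2 (0.939) and the nuclear pore gene Nup133 (0.936) for Cdca5; Ankhd1 (0.967), Notch4 (0.965) and Cdyl2 (0.953) for Espl1; Nupr1l (0.981), Cox7a2l (0.976) and Tvp23b (0.971) for Pttg1; and Tmpo (0.977), 1110002L01Rik (0.941) and Slc7a6 (0.939) for Hdac8. Of these 15 only Cdyl2 (-1.13, adjusted p = 0.0364) was called in Smc1.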

How the data were processed

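The authors deposited a table of intensity with 44903 probe sets and 8 arrays. The method behind these summaries is not given in the sources available; the values were checked to be linear (0.0461 to 54756) and scaled to a common mean (488.9 to 490.0, trimmed by 2%). Of the probe sets with 1 symbol 34554 were matched by gene identifier to RefSeq's table for GRCm38.p6, which changed 0 symbols; the 64 controls were left out. Log2(value + 16) was fitted in R 4.3.3 with limma 3.58.1 (group means, prior with an intensity trend; 4 residual degrees of freedom and a prior of 5.95). Each gene was represented by its probe set of highest mean, and genes above the array median on at least 2 of 8 arrays were tested. All probe sets of the 7 genes were also tested singly. Precision is limited by 2 arrays per group, and p-values rest on 1 pooled spread, part of it between hairpins.

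The genes, lists and alternatives were chosen with earlier results of these data known. Named were all 7 genes, the targets, up to 4 called genes per list and the 3 most alike; Smc3, Rad21, Bub1, Ppp2r1a, Ppp2r5c, Cdk1 and Plk1 were added for their roles after their values were seen. Alternatives were other pseudocounts, filters, scalings, probe set rules and models, a replicate block, the Actb ratio and leaving out each array. In simulated data for Smc1 against GFP (12400 genes, 50 changed per size) 6, 56, 84 and 96% of log2 changes of 0.5, 1, 1.5 and 2 were called. There were 6 false calls. Far fewer genes were changed there than the 1745 called in the data, and the adjustment depends on that number. The percentages therefore do not give the power of the real comparison.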

Additional observations from a re-analysis of the deposited data

Results flagged for a closer look

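The Smc1 and the condensin knockdowns differed in the direct test for 2 of the 7 genes. With the average of CapH2 and Smc2 taken from Smc1, the log2 difference was -0.88 for Esco2 (limma adjusted p = 0.0347) and -0.57 for Sgo1 (adjusted p = 0.0416), with both Smc1 arrays below all 4 condensin arrays in each case. Of all genes 7.85% were called in this comparison, 2.24% lower, and 14.6% had both Smc1 arrays below all 4 others. The Esco2 call held in 9 of 18 alternatives and the Sgo1 call in 7 of 18; both were lost with the replicate block and when only the arrays compared were fitted.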

How the results depend on the processing

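Of 35 gene results (7 genes, 5 comparisons) under 18 alternatives, 601 of the values kept their side of the threshold, 29 lost a call and none gained one or reversed; 44 values without a call changed sign. All 29 losses were of Esco2 or Sgo1, in the Smc1 comparisons, where both stayed below 0 under all 18; among the sign changes without a call, Esco2 in CapH2 against Smc2 reached 0.32 and Sgo1 in CapH2 against GFP 0.0049. In Smc1 against GFP the 2 called genes became 1 with no intensity trend and 1 with the Actb ratio as a covariate, and ran from 0 to 2 without 1 array. In Smc1 against the condensin mean the 2 became 0 without the filter, 1 with the mean over probe sets, 0 with no trend, 0 with only the arrays compared, and 0 to 2 without 1 array. The 5 called probe sets became 3 without the filter, 1 with no trend, 1 with the Actb ratio, and 0 to 6 without 1 array. The counts of 0 in the other comparisons stayed at 0. Over all genes the 1745 calls in Smc1 against GFP became 574 with the Actb ratio, 2693 with only the arrays compared and 140 to 2196 without 1 array; the 973 against the condensin mean became 602 without the filter, 608 with only the arrays compared, 1662 with the Actb ratio and 10 to 1166 without 1 array. The 2 calls in Smc2 against GFP became 58 with the Actb ratio and 195 without hairpin 2, and the 2 in CapH2 11 with only the arrays compared. Fewer arrays or more genes tested enter by construction in the leave-outs and without the filter; otherwise the cause was not tested.

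With the replicate block for the numbers shared by Smc1 and GFP, the count in Smc1 against the condensin mean was 0 (Esco2 adjusted p = 0.0597, Sgo1 0.0601) and that of probe sets 3, while both calls against GFP were kept (0.0171 and 0.0415). Deviations of same-numbered arrays had an r of 0.0661 across genes. With 2 arrays per group the deviations of replicates 1 and 2 mirror each other, so this is a single value. It cannot show whether same-numbered arrays shared a batch, and the labels give them only a common number.

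Median centring moved the median of all genes in Smc1 against GFP from 0.03 to -0.15, and the share of calls that were higher from 66.6 to 40.9% (71.4 to 40.6% in Smc1 against the condensin mean). Esco2 then stood at -1.58 and Sgo1 at -0.84. Over the alternatives Esco2 in Smc1 against GFP ran from -1.61 to -0.86 (adjusted p from 0.000367 to 0.0836) and Sgo1 from -0.84 to -0.52 (0.0141 to 0.151).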
